A study of Mus musculus with 4 samples.

Results

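Among the cells of injured *Nse-Bmp4* muscle at 7 days post injury (dpi), 2353 held at least 4 transcripts of *Tnn*, *Lrrc15* and *Cthrc1* in sum and at most 1 of a panel of cartilage genes. They were chosen on the raw counts of unique molecular identifiers (UMIs), each of which tags 1 captured transcript. A cell of the 7 dpi library was taken when mitochondrial genes made up at most 10% of its UMIs, *Tnn*, *Lrrc15* and *Cthrc1* together had at least 4 UMIs, and *Ptprc* and *Tnmd* had 0. It could hold at most 1 UMI of *Acan*, *Col9a1*, *Hapln1* and *Snorc* together, and at most 2 of the cycling genes *Mki67*, *Top2a*, *Cdk1*, *Birc5*, *Cenpf* and *Ube2c*. The 2353 cells were 10.2% (95% Clopper-Pearson interval 9.83 to 10.6) of the 23026 cells of the library within the mitochondrial limit. The library held 23752 cells and the series 62665. Since measured counts of these genes chose the cells, their levels describe the choice and carry no test. The cells are called *Tnn*/*Lrrc15*/*Cthrc1* cells here, after the genes of the rule.

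The study followed heterotopic ossification, the formation of bone in soft tissue, in C57BL/6 mice of 6 to 8 weeks that carry *Nse-Bmp4*, a transgene in which a rat neuron-specific enolase promoter drives *Bmp4*. All 4 libraries came from such mice, so none shows muscle without the transgene. Tibial muscle was taken uninjured (Uninjured) or at 1, 3 and 7 dpi after cardiotoxin, a snake venom toxin that destroys muscle fibres, and each library was a pool of 3 muscles run on the 10x droplet platform. Uninjured, 1, 3 and 7 dpi held 112317902, 91146335, 116346301 and 129007669 UMIs in that order. With 1 library per time point no comparison could be tested between replicates, and library and time point cannot be told apart. All intervals below are 95% intervals for counting error alone, exact Poisson for a level, Clopper-Pearson for a share and conditional binomial for a ratio. Levels are CPM, the UMIs of a gene in a group of cells per 1000000 UMIs of that group. A gene was counted as higher or lower at a ratio of at least 2 in either direction, among genes with a mean of at least 10 CPM over both groups.

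Bone that forms in soft tissue after injury usually passes through cartilage. Mesenchymal progenitors condense under bone morphogenetic protein (BMP) signals, the transcription factor SOX9 switches on collagen II and aggrecan, and RUNX2 and SP7 later direct bone matrix. *Tnn* encodes tenascin W, a matrix glycoprotein made in developing bone and in tumour stroma. *Lrrc15* encodes a membrane protein with leucine-rich repeats that marks activated fibroblasts, and *Cthrc1* a secreted collagen triple helix repeat protein of injured vessels and fibrotic tissue. *Postn* (periostin) and *Tnc* (tenascin C) are matrix proteins of wounds, periosteum and tendon.

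On mouse GRCm38 with GENCODE M21, *Tnn* (ENSMUSG00000026725) lies on the minus strand at chr1:160085029-160153580 and *Lrrc15* (ENSMUSG00000052316) on the minus strand at chr16:30269302-30283256. *Cthrc1* (ENSMUSG00000054196) lies on the plus strand at chr15:39076932-39087121. The windows from 250 bases before to 50 bases after the RefSeq start of *Tnn* and *Lrrc15* are shown because these genes give the cells their name. This start lies a few bases from the upper end of the GENCODE span, and the motif distances below count from it. They are RefSeq sequences on GRCm38.p6, at chr1:160153526-160153825 and chr16:30283205-30283504, both on the minus strand and written 5′ to 3′.
Tnn: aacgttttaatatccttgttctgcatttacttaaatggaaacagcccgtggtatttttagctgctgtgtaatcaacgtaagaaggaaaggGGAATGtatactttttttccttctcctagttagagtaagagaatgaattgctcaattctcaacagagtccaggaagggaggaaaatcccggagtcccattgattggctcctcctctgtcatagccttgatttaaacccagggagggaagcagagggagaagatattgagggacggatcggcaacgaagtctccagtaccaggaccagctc
Lrrc15: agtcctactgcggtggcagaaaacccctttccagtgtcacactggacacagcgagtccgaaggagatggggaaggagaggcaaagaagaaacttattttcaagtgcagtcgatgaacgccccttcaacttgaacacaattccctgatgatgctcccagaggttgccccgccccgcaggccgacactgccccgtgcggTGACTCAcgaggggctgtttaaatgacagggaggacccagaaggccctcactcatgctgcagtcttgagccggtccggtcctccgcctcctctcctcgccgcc
Capitals mark letters that match a searched motif on either strand. The motif TGTGGT of RUNX factors was in 16.8% of 32851 RefSeq promoter windows of the same length. The AP-1 motif TGANTCA was in 7.81% of them, the TEAD motif GGAATG in 14.7% and the TATA box, searched as TATAAA, in 13.6%. The *Tnn* window held GGAATG 160 bases before the start, and the *Lrrc15* window held TGACTCA 53 bases before it. A match is a run of letters and says nothing here about binding.

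*Cthrc1* was the gene by which nearly every cell entered. It had a UMI in 2344 of the 2353 cells, *Tnn* in 1263 (53.7%) and *Lrrc15* in 950 (40.4%). All 3 genes were seen together in 537 cells (22.8%), and 681 cells (28.9%) passed on *Cthrc1* alone. The sum of the 3 genes had a median of 7 UMIs (quartiles 5 and 13, highest 108). No cartilage panel UMI was found in 1456 cells, and 897 cells had the 1 that the rule allows. Of the cycling genes, 1553 cells had no UMI, 531 had 1 and 269 had 2.

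The edges of the rule were not gaps in the data. The 500 cells with exactly 4 UMIs of the 3 genes had a median of 2231 UMIs in all, and *Tnn* was seen in 49.2% and *Lrrc15* in 23.0% of them. The 669 cells with 3 UMIs, just outside, had a median of 2012 UMIs, with *Tnn* in 39.2% and *Lrrc15* in 17.3%. On the cartilage side the 897 cells with 1 panel UMI had *Tnn* in 60.5% and *Lrrc15* in 40.6%, and the 463 cells with 2, just outside, had 68.7% and 43.0%. The cartilage term kept out 3281 cells that passed all other terms, the *Tnmd* term 726, the cycling term 782 and the *Ptprc* term 181. The cartilage term therefore divided a larger group of *Tnn*/*Lrrc15*/*Cthrc1* cells, of which those without the panel were the smaller share.

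A fixed count of 4 UMIs asks more of a shallow cell. The cells together held 16384930 UMIs, with a median of 4090 per cell (quartiles 2282 and 10281, range 521 to 52134) and 1718 genes. *Cthrc1* stood at 4036 CPM in the 42 cells with at most 1000 UMIs, at 1562 CPM in the 729 cells above 2000 and up to 4000 and at 1307 CPM in the 534 cells above 8000 and up to 16000. It stood at 1549 CPM in the 252 cells above 16000 UMIs. *Tnn* was at 1225, 424, 123 and 222 CPM over the same 4 classes, and both are genes of the rule. *Postn*, which the rule did not use, was at 4203, 3835, 4890 and 3726 CPM in these classes. *Pi16*, a gene of resting fibroblasts, was at 55.7, 101, 287 and 118 CPM, and *Ly6a*, which encodes the stem cell antigen SCA1, at 334, 657, 1179 and 1248 CPM. *Ibsp*, which encodes bone sialoprotein, was at 473, 585, 254 and 18.7 CPM. Deep and shallow *Tnn*/*Lrrc15*/*Cthrc1* cells thus differed in genes outside the rule, with *Ly6a* highest and *Ibsp* lowest in the deepest class.

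**Figure D1:**
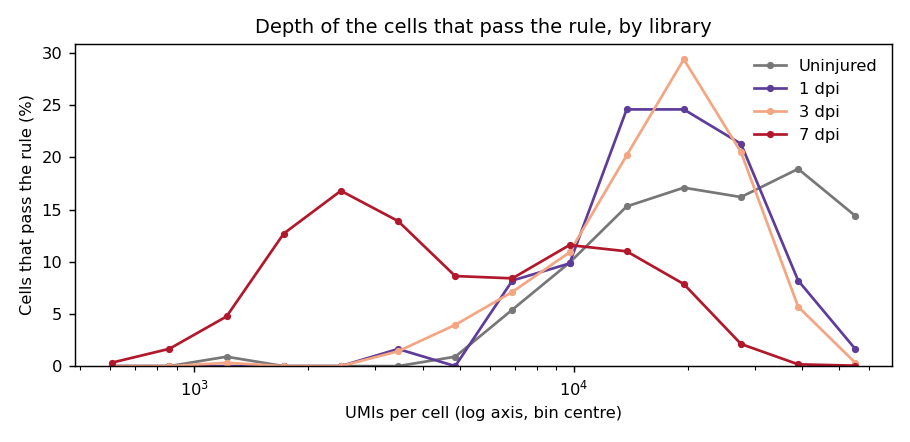
UMIs per cell (horizontal log axis, centres of bins) against the percentage of the cells passing the rule in each library (vertical axis), with a line for each of the 4 libraries. The 7 dpi cells had a median of 4090 UMIs, while the cells of the Uninjured, 1 dpi and 3 dpi libraries had medians of 23616, 17732 and 17633.

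Transcripts of other cell types were present in some of the droplets. Over 31 marker genes of immune, endothelial, muscle, Schwann and pericyte, and red cells, 367 cells (15.6%) had 5 or more UMIs. All 10 immune markers were detected, at 203 CPM in sum, led by *Cd74* of antigen presentation at 69.1 CPM, and 171 cells held 64.0% of these UMIs. All 6 Schwann and pericyte markers summed to 139 CPM, led by *Rgs5* of pericytes at 79.0 CPM, and all 4 red cell markers to 106 CPM, of which 21 cells held 92.4%. The 6 muscle markers summed to 28.3 CPM, led by *Myog* at 13.7 CPM, and the 5 endothelial markers to 17.9 CPM, led by *Egfl7* at 7.20 CPM. Scrublet, which scores each droplet for its likeness to simulated mixtures, placed 89 of the cells (3.78%) among the 7.5% of the library with the highest scores. Doublets were not removed. The barcodes of 19 cells also occurred in another library, 8 in Uninjured, 6 in 1 dpi and 5 in 3 dpi.

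The label given to these cells joins *Lrrc15* and *Tnn* with the words osteochondral progenitor. Of its 5 markers, *Tnn*, *Lrrc15* and *Cthrc1* were in the rule, which leaves *Postn* and *Tnc* as markers the rule did not read. *Postn* stood at 4271 CPM (4239 to 4303) and *Tnc* at 496 CPM (485 to 507). In B lineage cells of the same library, which should lack them and show the free RNA of the suspension, *Postn* was at 1884 CPM and *Tnc* at 233 CPM over 113 cells with at most 1 cartilage panel UMI. After each cell was thinned to 1500 UMIs, *Postn* had a UMI in 96.8% (95.9 to 97.5) of *Tnn*/*Lrrc15*/*Cthrc1* cells and in 27.1% (17.2 to 39.1) of B lineage cells, and *Tnc* in 43.0% and 7.14%. Before thinning these shares were 99.2% and 32.7% for *Postn* and 67.4% and 11.5% for *Tnc*, at median depths of 4090 and 1656 UMIs. Thinning left out 184 of the 2353 cells and 43 of the 113 B lineage cells. Both markers were thus above this background by level and by share.

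Genes of the osteochondral lineage were low in these cells. *Sox9* was at 87.2 CPM (82.7 to 91.8) against 14.5 (4.72 to 33.9) in B lineage cells, and *Runx2* at 47.2 CPM (44.0 to 50.7) against 8.72 (1.80 to 25.5). After thinning, *Sox9* had a UMI in 13.5% and *Runx2* in 7.10% (6.05 to 8.26) of cells, against 1.43% (0.0362 to 7.70) and 0% of B lineage cells, where 0 of 70 cells allows a share of up to 4.29%. Before thinning *Sox9* was seen in 31.8% and *Runx2* in 22.1%, and 231 cells (9.82%) had a UMI of both while 1316 had neither. *Sp7*, the bone transcription factor osterix, was at 9.77 CPM (8.31 to 11.4), with a UMI in 5.27% of cells, against 2.91 CPM (0.0736 to 16.2) in B lineage cells. *Ibsp* was at 240 CPM, and its share of 14.2% (12.8 to 15.8) after thinning did not stand apart from the 11.4% (5.07 to 21.3) of B lineage cells. *Col2a1*, the main cartilage collagen, was at 102 CPM and in 15.4% (13.9 to 17.0) of thinned cells, against 140 CPM and 14 of 70 B lineage cells (interval 11.4 to 31.3%), so it lay at the background. *Sox9* and *Runx2* thus exceeded the B lineage background, and *Col2a1* and the broad signal of *Ibsp* did not.

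**Figure D2:**
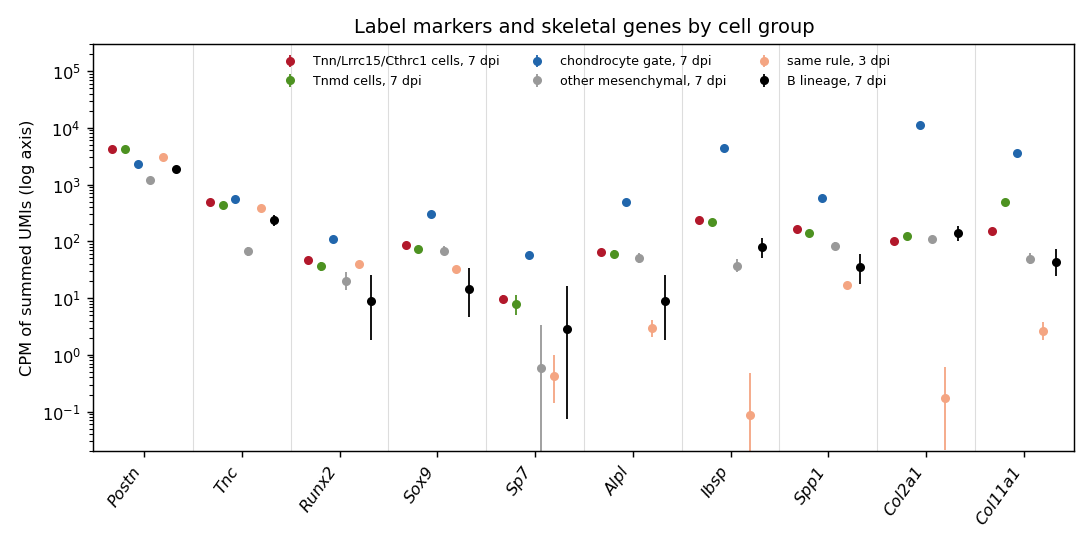
CPM of summed UMIs (vertical log axis) of 10 genes in 6 groups of cells, with 95% Poisson intervals as bars, where B lineage cells stand for the background at 7 dpi. *Postn* was at 4271 CPM and *Runx2* at 47.2 CPM in the *Tnn*/*Lrrc15*/*Cthrc1* cells, and *Col2a1* at 102 CPM lay beside the B lineage level of 140 CPM.

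Part of the bone gene signal sat in few droplets. The 3935 UMIs of *Ibsp* fell in 664 cells (28.2%), with 592 in the highest cell and 46.6% in the highest 10. *Spp1* (osteopontin) had 51.4% of its 2742 UMIs in 10 cells. *Tnc* was spread more evenly, with 9.91% of its 8126 UMIs in 10 cells.

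Relaxing the cartilage term alone showed how the cells graded into those with cartilage transcripts. Cells that passed every other term were binned by their panel UMIs at 0, 1, 2 to 3, 4 to 7, 8 to 15 and 16 or more, with 1456, 897, 794, 723, 663 and 1101 cells and median depths of 4085, 4096, 3731, 4139, 4913 and 9817 UMIs. *Lrrc15* was at 125, 129, 171, 158 and 149 CPM in the lowest 5 bins and at 37.5 CPM in the highest. *Postn* was at 4244, 4314, 4719, 4272 and 3705 CPM and then at 1613. *Tnn* rose in level from 197 CPM without panel UMIs to 527 CPM at 8 to 15 and stood at 338 CPM in the highest bin. *Lrrc15* and *Postn* were lowest in the highest bin. Every bin held only cells with 4 or more UMIs of the 3 rule genes, so the presence of *Tnn* and *Lrrc15* in a bin follows from the choice of cells.

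Several resting fibroblast genes fell and several skeletal genes rose in level over these bins. *Ly6a* was at 1126, 965, 637, 352, 253 and 199 CPM, and *Pi16* at 221, 166, 84.9, 50.3, 29.1 and 28.4 CPM. *Cd34*, a sialomucin of resting fibroblasts and vessels, went from 222 to 30.0 CPM, and *Clec3b*, which encodes tetranectin, from 386 to 39.2 CPM. Each was lower in every bin than in the bin before it, although the last step of *Pi16* was within counting error. *Sox9* was at 78.7, 101, 120, 176, 189 and 373 CPM, *Runx2* went from 42.1 to 127 CPM and *Sp7* from 8.80 to 66.0 CPM. *Ibsp* was at 169, 355, 1074, 1398, 3114 and 8273 CPM, and *Col11a1*, a minor fibrillar collagen of cartilage, at 123, 193, 355, 671, 1088 and 5332 CPM. The rise of *Ibsp* from 0 to 1 panel UMI lay inside the rule. Others did not keep 1 direction, *Cxcl12* of the resting fibroblast list at 206, 225, 229, 170, 122 and 37.4 CPM and *Spp1* of the bone list at 200, 114, 142, 230, 289 and 827 CPM. *Scx*, the tendon transcription factor scleraxis, peaked at 132 CPM in the bin of 8 to 15 and was at 37.9 CPM in both the lowest and the highest bin. Median depth was similar up to 7 panel UMIs and higher above, and its part in these gradients was not tested.

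**Figure D3:**
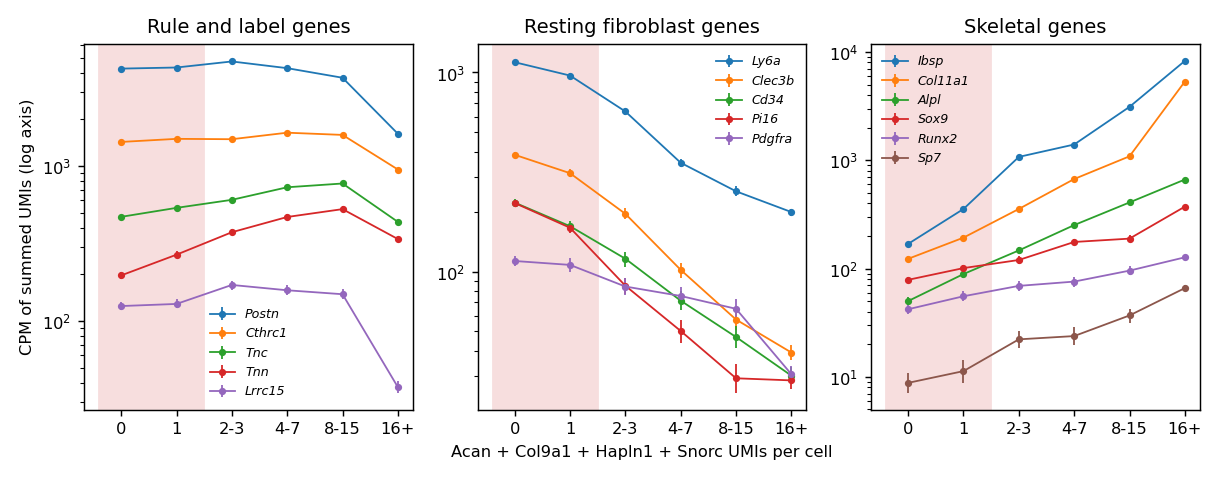
CPM of summed UMIs (vertical log axes) in cells that pass every term but the cartilage term, binned by their UMIs of 4 cartilage genes (horizontal axis), with 95% Poisson intervals; the shaded bins of 0 and 1 hold the *Tnn*/*Lrrc15*/*Cthrc1* cells. *Ly6a* went from 1126 to 199 CPM and *Sox9* from 78.7 to 373 CPM over the bins.

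Cells with cartilage transcripts are the group the rule set apart, so their contrast with the *Tnn*/*Lrrc15*/*Cthrc1* cells is a description. The same holds for the 2 contrasts after it, whose gates read *Tnmd* or the 3 rule genes, and all contrasts share the same 2353 cells. They were the 2264 cells at 7 dpi with at least 8 UMIs of the panel, at most 1 of the hypertrophy collagen gene *Col10a1*, 0 of *Tnmd* and *Ptprc*, and the same mitochondrial and cycling limits, with a median of 4318 UMIs. Of 7996 genes compared, 434 (5.43%) were higher and 262 (3.28%) lower in the *Tnn*/*Lrrc15*/*Cthrc1* cells. All 14 measured genes of cartilage matrix outside the rule were lower, with a median log2 ratio of -6.03 against 0.08 over all genes. *Col2a1* was at 102 against 11069 CPM, 108-fold lower (103 to 114), *Col11a1* at 150 against 3674 CPM, and *Comp*, a pentameric glycoprotein of cartilage and tendon, at 145 against 3261 CPM. *Matn1* (matrilin-1) was 133-fold lower (74.3 to 268) and *Scrg1* 173-fold lower (106 to 303). After thinning, *Comp* had a UMI in 20.8% (19.1 to 22.6) of the *Tnn*/*Lrrc15*/*Cthrc1* cells and in 14.3% (7.07 to 24.7) of B lineage cells. Its share was thus not distinct from that background. *Col11a1* had a UMI in 24.9% (23.0 to 26.7) and 5.71% (1.58 to 14.0).

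Most chondrogenic transcription factors were lower as well. Of 7 chondrogenic factors measured, 6 were lower, with *Sox9* at 87.2 against 307 CPM, 3.52-fold lower (3.32 to 3.74). Its partners *Sox5* and *Sox6*, which help SOX9 act on cartilage genes, were 4.25-fold (3.60 to 5.04) and 22.4-fold (17.0 to 30.0) lower. *Runx2*, at 47.2 against 109 CPM, was 2.31-fold lower (2.13 to 2.52), and *Sp7* 5.93-fold lower (5.01 to 7.05). All 4 hypertrophy genes outside the gate were lower, among them *Ihh* (Indian hedgehog, 64.2-fold) and *Pth1r*, the parathyroid hormone receptor, at 57.4 against 535 CPM. Of 9 bone matrix genes 5 were lower, with *Ibsp* at 240 against 4415 CPM, 18.4-fold (17.8 to 19.0), and *Alpl*, the alkaline phosphatase of mineralizing cells, 7.68-fold (7.21 to 8.19). In cells with over 1000 and up to 8000 UMIs *Runx2* was apart by -0.76 on the log2 scale, under the 2-fold limit, while *Sox9* was at -1.48 and *Sp7* at -1.64.

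Most genes of the resting fibroblast list were higher. Of 12 such genes 10 passed, with a median log2 ratio of 2.10. *Ly6a* was at 1064 against 227 CPM, 4.69-fold higher (4.53 to 4.86), *Pi16* at 200 against 33.4 CPM and 5.98-fold (5.47 to 6.55), and *Clec3b* at 357 against 56.8 CPM and 6.30-fold (5.88 to 6.75). *Cd34* was 5.15-fold higher (4.74 to 5.61) and *Mfap5*, of elastic microfibrils, 3.93-fold (3.83 to 4.04). The largest ratio was that of *Cxcl5*, a chemokine that draws neutrophils, at 33.4 against 3.45 CPM and 9.69-fold (7.40 to 12.9), but 58.3% of its UMIs lay in 10 cells. *Prg4* (lubricin) was 6.49-fold, *Cilp* 6.40-fold and *Cfb* (complement factor B) 6.31-fold higher. These values depended on depth, since among cells with over 1000 and up to 8000 UMIs only 69 genes were higher and 213 lower, and among cells above 8000 UMIs 573 were higher and 296 lower. In the shallower cells *Pi16* was higher by 1.33, *Clec3b* by 1.20, *Cd34* by 1.03 and *Ly6a* by 0.87 on the log2 scale, and *Cxcl5* by 0.31.

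Most matrix genes of activated fibroblasts lay within the 2-fold limit of the cells that carried cartilage transcripts. None of 15 such genes was 2-fold higher, where 5.43% of all genes were, so this count says little about the list. *Col12a1* and *Omd* (osteomodulin) were lower, where 3.28% of all genes were. The list median was 0.12 on the log2 scale, against 0.08 over all genes. *Postn* was at 4271 against 2313 CPM, 1.85-fold higher (1.82 to 1.87), and *Tnc* at 496 against 564 CPM. The gate of the cells with cartilage transcripts set no limit on the 3 rule genes. *Tnn* was higher in them, at 392 CPM against 224 CPM in the *Tnn*/*Lrrc15*/*Cthrc1* cells. *Lrrc15* (68.7 against 127 CPM) and *Cthrc1* (1104 against 1454 CPM) were lower in them.

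The *Tnmd* cells were the group most like the *Tnn*/*Lrrc15*/*Cthrc1* cells by the count of genes apart among the 3 groups of the library. *Tnmd* encodes tenomodulin, a membrane protein of tendon cells, and the 618 cells had at least 2 of its UMIs, at most 1 panel UMI and a median of 3245 UMIs. Their gate set no limit on the 3 rule genes, while that of the other mesenchymal cells below allowed none of them. *Cthrc1* was at 1454 against 1463 CPM in the *Tnmd* cells, *Lrrc15* at 127 against 117 CPM and *Tnn* at 224 against 180 CPM. These genes were thus not particular to the *Tnn*/*Lrrc15*/*Cthrc1* cells. Of 8117 genes, 43 (0.530%) were higher and 102 (1.26%) lower in the *Tnn*/*Lrrc15*/*Cthrc1* cells. All 5 tendon genes were lower. *Kera* (keratocan) was at 2.14 against 224 CPM, 105-fold lower (74.7 to 152), *Scx* at 42.6 against 244 CPM and 5.72-fold lower (5.16 to 6.34), *Fmod* (fibromodulin) 5.20-fold (4.96 to 5.45), *Mkx* 6.70-fold and *Thbs4* 2.22-fold. With *Kera*, *Ptx4* (150-fold), *Reg3g* (128-fold), *Cilp2* (66.6-fold) and *Chad* (49.2-fold) had the 5 widest ratios on the lower side. Of 9 cartilage matrix genes 5 were lower, with *Col11a1* at 150 against 488 CPM.

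Outside the tendon genes few of the lists set these groups apart. None of the 15 activated matrix genes and none of 12 collagens was 2-fold apart, near the 0.530% higher and 1.26% lower over all genes. *Postn* was at 4271 against 4243 CPM (ratio 1.01, interval 0.988 to 1.03). *Runx2* was at 47.2 against 36.6 CPM, 1.29-fold higher (1.06 to 1.58), and *Sox9* 1.21-fold higher (1.05 to 1.39), both within the 2-fold limit. On the higher side were *Saa3*, an acute phase protein, at 21.2 against 1.86 CPM (11.4-fold, 5.18 to 31.3), and *Cxcl5* (6.73-fold, 4.11 to 11.9), with 68.3% and 58.3% of their UMIs in 10 cells. *Aldh1a2*, which makes retinoic acid, was 4.50-fold higher (2.64 to 8.33), *Dmkn* 3.17-fold and *Dlk1* 2.92-fold. Genes of other cells were higher too, the mast cell gene *Cma1* at 18.3 against 2.17 CPM (8.44-fold, 4.05 to 21.2), with 47.7% of its UMIs in 10 cells, and *Igkc* of antibodies at 41.6 against 11.8 CPM (3.53-fold, 2.55 to 5.03). The *Igkc* ratio was turned to -1.95 on the log2 scale with the rule applied after thinning to 3000 UMIs, and 73.7% of its UMIs lay in 10 cells. *Wnt2*, a Wnt ligand, was at 59.3 against 25.1 CPM (2.36-fold, 1.88 to 3.00), and *Bmper*, a secreted BMP regulator, 2.14-fold higher. The immune marker list was at 646 CPM in the *Tnmd* cells against 203 CPM and the red cell list at 447 against 106 CPM, and the part of other cells in either direction was not tested.

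The widest contrast by that count was with 346 mesenchymal cells of the same library that had at least 2 UMIs of *Pdgfra* and *Prrx1* together, but no UMI of *Tnn*, *Lrrc15* or *Cthrc1*. These cells also had no UMI of *Tnmd*, of the endothelial genes *Pecam1* and *Cdh5*, of *Rgs5*, or of the muscle genes *Pax7* and *Myog*, and at most 1 of the cartilage panel. Their median depth was 4485 UMIs. Of 8268 genes, 327 (3.96%) were higher and 589 (7.12%) lower in the *Tnn*/*Lrrc15*/*Cthrc1* cells. Here 8 of 15 activated matrix genes were higher and 3 lower, with a median log2 ratio of 1.65 against -0.05 over all genes. *Tnc* was at 496 against 66.7 CPM, 7.43-fold higher (6.17 to 9.04), and *Postn* at 4271 against 1215 CPM, 3.51-fold (3.36 to 3.67). *Col12a1* was 5.35-fold, *Col8a1* 3.58-fold, *Aspn* (asporin) 3.33-fold and *Adam12* 3.24-fold higher. The 3 lower members were *Dcn* (decorin, 2951 against 11052 CPM), *Lum* (lumican) and *Fap*, the fibroblast activation protein, at 78.0 against 184 CPM. *Fap* was thus lower in the cells where *Tnc* and *Postn* were higher. Markers of other cell types moved with this contrast. The red cell list was at 106 against 7.74 CPM, with *Hba-a1* and *Hbb-bs* higher. The immune list was at 203 against 110 CPM, with *Cd74* higher, and the Schwann and pericyte list at 139 against 61.4 CPM. The gate of the other mesenchymal cells left out cells with *Rgs5*, and the rule did not. The part of other cells was not tested.

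A few collagen enzymes and TGF-beta genes were higher in the same contrast, and the matrix protease list was not. Of 9 proteases and TIMPs measured, *Timp1*, an inhibitor of matrix proteases, was higher (821 against 222 CPM, interval of the fold 3.33 to 4.11) and the protease gene *Mmp3* lower (46.1 against 92.9 CPM, 2.01-fold, 1.68 to 2.40), with a list median of -0.40 on the log2 scale. *Lox*, the lysyl oxidase that crosslinks collagen, was at 627 against 164 CPM (3.81-fold, 3.38 to 4.31), and *P4ha3* 5.73-fold and *Plod2* 2.21-fold higher, the 3 of 14 collagen enzymes that passed. Of 10 TGF-beta genes 3 were higher, *Inhba* (activin A subunit, 5.23-fold, 3.71 to 7.62), *Ltbp2* (8.91-fold) and *Tgfb3* (2.15-fold). *Tnfrsf11b*, which encodes osteoprotegerin, the decoy that restrains osteoclasts, was at 26.7 against 2.98 CPM (8.95-fold, 3.81 to 27.7). The lactate transporter *Slc16a3* (16.3-fold), *Crabp2* (12.4-fold) and *C1qtnf3* (8.86-fold) also stood among the widest ratios. All 3 measured tendon genes were higher, *Scx* at 42.6 against 1.19 CPM, *Fmod* 7.14-fold and *Thbs4* 2.55-fold. *Runx2* was 2.33-fold higher (1.65 to 3.39) and *Ibsp* 6.40-fold (240 against 37.5 CPM, 4.99 to 8.34), while *Sox9* was at 87.2 against 68.5 CPM (1.27-fold, 1.05 to 1.55). The *Ibsp* level rested on few cells, with 46.6% of its UMIs in 10 cells and 69.9 CPM in the cells outside the subgroup that *Ibsp* led on clustering, less than 2-fold above the other mesenchymal cells.

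Resting fibroblast genes were among those lower than in the other mesenchymal cells. Of 11 measured outside the gate 6 were lower and none higher, with *Gsn* (gelsolin) at 546 against 7881 CPM and 14.4-fold lower (14.0 to 14.8), *Smoc2* 6.43-fold and *Clec3b* 4.12-fold. *Pi16* was at 200 against 496 CPM, 2.48-fold lower (2.30 to 2.68), and above 8000 UMIs it was apart by -0.44 on the log2 scale, within the limit. *Inmt* (46.1-fold), *C7* of the complement system (30.2-fold), *Enpp2*, which encodes autotaxin (18.5-fold), and *Col15a1* of vessel basement membrane (8.83-fold) were lower too. *Ly6a* was at 1064 against 1539 CPM (1.45-fold lower, 1.39 to 1.51), within the limit. *Clec3b* and *Cd34* (202 against 568 CPM) were lower than in these cells and higher than in the cells with cartilage transcripts.

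Transcripts of BMP ligands were fewer than in the other mesenchymal cells. Of 5 genes of the BMP and GDF list measured 4 were lower. The other was *Bmp1*, which encodes a protease and not a ligand. *Bmp4*, the gene the transgene carries, was at 18.6 against 101 CPM (5.46-fold lower, 4.50 to 6.61), and the counts do not tell transgene from endogenous transcripts. *Bmp2* was 4.75-fold (3.35 to 6.65), *Bmp5* 6.43-fold and *Gdf10* 7.10-fold lower. Of the 5 BMP response genes measured, none was 2-fold apart, and of 9 BMP and TGF-beta receptors *Tgfbr3* was lower and none higher. Against the cells with cartilage transcripts, 4 of 9 receptors were higher, *Tgfbr3* (3.31-fold), *Acvrl1* (2.93-fold), *Acvr2a* (2.80-fold) and *Tgfbr2* (2.28-fold). The BMP receptor gene *Bmpr1a* was at 54.2 against 53.4 CPM there, and *Acvr1*, which encodes the ALK2 receptor of hereditary heterotopic ossification, at 36.1 against 39.5 CPM. In cells with over 1000 and up to 8000 UMIs none of those 4 receptors reached the limit, with log2 ratios of 0.85, 0.67, 0.90 and 0.58.

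Cells that met the same rule were rarer in the earlier libraries. The rule took 111 cells in Uninjured (0.939%, 0.773 to 1.13), 61 at 1 dpi (0.562%, 0.430 to 0.721) and 633 at 3 dpi (4.48%, 4.15 to 4.84), against 2353 (10.2%) at 7 dpi. *Tnn* had a UMI in 2 of the 111, 4 of the 61, 196 of the 633 (31.0%) and 1263 of the 2353 cells, and *Lrrc15* in 13, 5, 150 and 950. Cells passed almost wholly by *Cthrc1* in Uninjured and at 1 dpi. Their median depths of 23616, 17732 and 17633 UMIs were above the 4090 UMIs at 7 dpi, and a deeper cell holds more UMIs of every gene. *Postn* was at 1547, 464, 3015 and 4271 CPM in the order of the time points, *Tnc* at 125, 53.2, 385 and 496 CPM, and *Acta2*, the smooth muscle actin of myofibroblasts, at 104, 34.6, 199 and 846 CPM. *Runx2* was at 21.9, 16.9, 39.1 and 47.2 CPM and *Sox9* at 27.1, 24.5, 33.1 and 87.2 CPM. Each of these 5 genes was highest at 7 dpi, although *Postn* was not higher than at 3 dpi among cells with over 1000 and up to 8000 UMIs. B lineage cells also carried more of 2 of them, with *Postn* at 400 CPM at 3 dpi and 1884 CPM at 7 dpi. *Tnc* was at 35.8 and 233 CPM there, and the part of such background in the rises was not tested. *Postn*, *Tnc* and *Acta2* were lowest at 1 dpi, while *Runx2* (10.3 to 26.1) and *Sox9* (16.4 to 35.2) there lay within counting error of Uninjured (16.9 to 27.7 and 21.6 to 33.6).

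Between 3 and 7 dpi, 275 of 8052 genes (3.42%) were higher and 238 (2.96%) lower at 7 dpi, with a median log2 ratio of -0.07 over all genes. The contractile genes were higher as a list, with all 7 measured passing and a list median of 2.16. Pericyte markers moved with them. The Schwann and pericyte list summed to 139 CPM at 7 dpi against 34.1 CPM at 3 dpi, with *Rgs5* (79.0 against 6.46 CPM) and *Kcnj8* (19.7 against 2.07 CPM) higher among its 3 measured genes, and 42.6% of the *Rgs5* UMIs at 7 dpi lay in 10 cells. *Acta2* was at 846 against 199 CPM, 4.26-fold higher (4.07 to 4.45), *Tagln* at 510 against 114 CPM, 4.48-fold (4.23 to 4.75), and *Actg2* at 111 against 7.41 CPM. The count was 7 of 7 also without cells that held 5 or more UMIs of other cell types, pericyte markers included, in cells with over 1000 and up to 8000 UMIs and in cells above 8000 UMIs. The shallower class held 1525 cells at 7 dpi but only 75 of the 633 at 3 dpi, and the deeper class 786 and 558. B lineage cells at 7 dpi carried *Tagln* at 538 CPM and *Acta2* at 506 CPM, against 31.9 and 52.2 CPM at 3 dpi. Before thinning, *Acta2* had a UMI in 14 of the 113 B lineage cells at 7 dpi. Its level there thus sat in few droplets, and how much of it was free RNA was not tested. After thinning, *Acta2* had a UMI in 49.1% (47.0 to 51.3) of *Tnn*/*Lrrc15*/*Cthrc1* cells at 7 dpi, in 15.1% (12.4 to 18.1) at 3 dpi and in 7.14% (2.36 to 15.9) of B lineage cells at 7 dpi. *Acta2* thus lay above that background at 7 dpi by its share of cells. *Tagln* was compared by level alone, at 510 CPM against 538 CPM in B lineage cells at 7 dpi. Whether its share of cells lay above that background was not tested.

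Hedgehog and Wnt genes were among those higher at 7 dpi. *Ptch1*, the hedgehog receptor and a target of the pathway, was at 67.7 against 5.08 CPM (13.3-fold, 10.2 to 17.6), against 20.4 CPM in B lineage cells, and *Gli1*, a target transcription factor, 9.83-fold higher (6.44 to 15.7). These were the 2 of 7 measured hedgehog genes that passed. At 7 dpi *Ptch1* was 2.06-fold lower than in the cells with cartilage transcripts and 1.67-fold higher (1.31 to 2.17) than in other mesenchymal cells. Of 10 Wnt genes 5 were higher than at 3 dpi and none lower. The ligand *Wnt2* was at 59.3 against 15.8 CPM (3.74-fold, 3.20 to 4.41), the modulator *Sfrp2* at 917 against 303 CPM (3.03-fold), and *Dkk3* 5.55-fold, *Rspo3* 2.85-fold and *Wnt5a* 2.31-fold higher. In cells with over 1000 and up to 8000 UMIs *Wnt2* was apart by 0.45 on the log2 scale, within the limit, and above 8000 UMIs by 2.16. *Id1*, a direct target of BMP signals, was at 39.9 against 16.2 CPM (2.46-fold, 2.09 to 2.91) and *Bambi* 2.41-fold higher, the 2 of 6 BMP response genes that passed.

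Some genes of the bone, tendon and cartilage lists were also among those higher at 7 dpi. Of 8 bone matrix genes 4 were higher, of 3 tendon genes 2, and of 5 osteogenic factors 1, *Twist1*. None of these was lower. *Mdk* (midkine), a growth factor of developing tissue, was at 343 against 9.30 CPM (36.8-fold, 30.5 to 45.0), against 108 CPM in B lineage cells at 7 dpi. *Alpl* was at 65.0 against 3.01 CPM (21.6-fold, 15.4 to 31.1), *Scx* 17.7-fold and *Fmod* 6.75-fold higher. *Sox9* was 2.64-fold higher (2.35 to 2.96), *Mef2c* 3.77-fold and *Shox2* 2.28-fold, 3 of 5 chondrogenic factors, while *Runx2* was at 47.2 against 39.1 CPM (1.21-fold, 1.07 to 1.36). All 6 measured cartilage matrix genes were higher, *Col11a1* 56.0-fold (39.4 to 82.6) and *Matn4* 31.0-fold among them. *Col2a1* had 2 UMIs at 3 dpi and *Ibsp* 1, and at 7 dpi neither stood above B lineage cells by share. Nor did *Comp*, in 20.8% of thinned cells (19.1 to 22.6) against 14.3% (7.07 to 24.7). *Col11a1* did, in 24.9% of thinned cells (23.0 to 26.7) against 5.71% (1.58 to 14.0), and *Matn4* in 8.58% (7.43 to 9.83) against 0% (0 to 5.13). *Col9a2* and *Col9a3* were not compared by share. The gate of cells with cartilage transcripts took 2 cells at 3 dpi and 2264 at 7 dpi. The part of their RNA in these rises was not tested. *Postn* was 1.42-fold higher (1.40 to 1.43), but by -0.02 on the log2 scale in cells with over 1000 and up to 8000 UMIs and by 0.55 above 8000.

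The gene with the widest ratio on the lower side at 7 dpi was the immunoglobulin gene *Igha*, at 7.32 against 225 CPM (30.8-fold, 25.6 to 37.3), and *Jchain*, which joins antibody units, was at 5.00 against 60.2 CPM (interval of the fold 9.56 to 15.3). Against the 75 cells at 3 dpi with over 1000 and up to 8000 UMIs both turned to the higher side, by 0.08 and 2.64 on the log2 scale, and above 8000 UMIs they were at -6.20 and -6.47. Without cells that held 5 or more UMIs of other cell types *Igha* was at -0.14 and *Jchain* at 2.26, and with limits of 2 SD on UMIs and genes at -0.33 and 2.17, so neither gene was lower beyond the limit there. *Prg4* was at 97.8 against 1451 CPM, 14.8-fold lower (14.1 to 15.6), and *Cxcl5* at 33.4 against 339 CPM, 10.2-fold (9.28 to 11.1). *Cxcl13*, a chemokine for B cells, was at 4.52 against 94.7 CPM (interval of the fold 16.6 to 26.9), and *Aldh1a2* at 19.5 against 219 CPM (11.2-fold, 9.96 to 12.6). *Ccn2* (connective tissue growth factor), a target of TGF-beta, was at 206 against 807 CPM, 3.91-fold lower (3.76 to 4.07), and *Ltbp2* 2.51-fold lower, the 2 of 10 TGF-beta genes that passed. *Csf1*, a growth factor of macrophages and osteoclasts, was 3.00-fold (2.81 to 3.20), *Bmp2* 3.12-fold and *Bmper* 2.70-fold lower. Of the resting fibroblast list *Gsn* and *Pdgfra* (111 against 253 CPM, 2.27-fold) were lower, and *Ly6a* was at 1064 against 1928 CPM, within the limit.

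**Figure D4:**
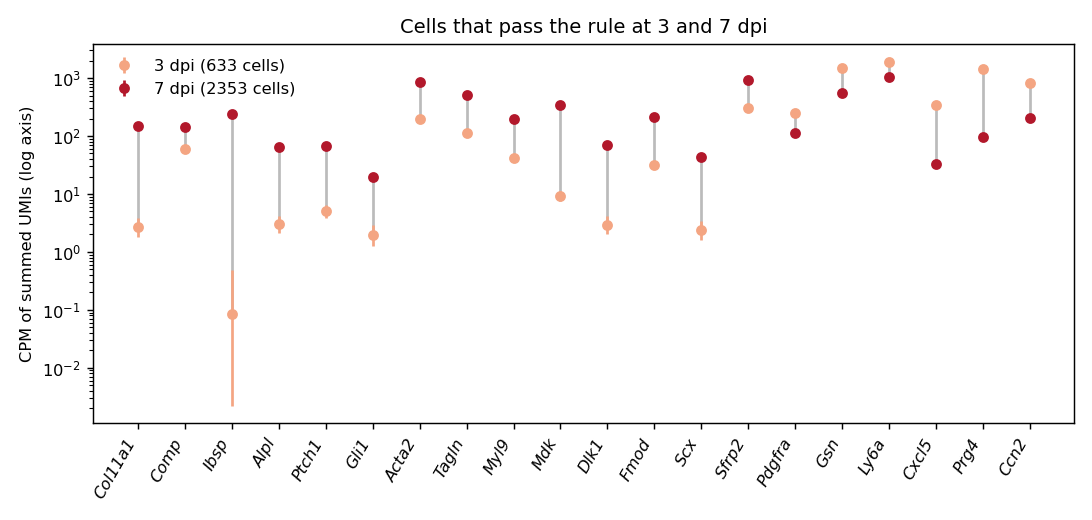
CPM of summed UMIs (vertical log axis) of 20 genes in the cells that passed the rule at 3 dpi and at 7 dpi, with 95% Poisson intervals and a line joining the libraries. *Acta2* went from 199 to 846 CPM and *Prg4* from 1451 to 97.8 CPM, while *Ibsp* at 3 dpi rested on 1 UMI.

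The *Tnn*/*Lrrc15*/*Cthrc1* cells were not uniform. Leiden clustering of these cells alone gave 11 subgroups, which are numbered by size and described by their leading genes, the genes of largest fold over the remaining cells with 10 CPM added to both sides. Since the same genes formed the subgroups, their levels carry no test. Subgroups 1 to 6 held 1939 cells (82.4%).

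Subgroup 1 (406 cells, median 2394 UMIs) was led by *Ibsp*, at 2324 CPM against 69.9 CPM in the remaining cells, and held 73.1% of all *Ibsp* UMIs. *Alpl* (294 CPM), *Ccl5*, a chemokine gene of lymphocytes (131 against 21.3 CPM, with a UMI in 21.7% of the cells), *Col11a1* (446 CPM), *Acan* of the panel (113 CPM) and *Pth1r* (169 CPM) followed it, *Sox9* was at 136 CPM and *Sp7* at 29.1 CPM. Most *Ibsp* transcripts were thus gathered in this subgroup, of whose cells 9.85% were among the highest doublet scores. Its low median depth does not show the depth of the droplets that held those transcripts. Subgroup 2 (399 cells, median 11136 UMIs, none with a high doublet score) was led by *Pi16*, at 542 against 67.1 CPM, *Fbln7* and *Clec3b*, with *Ly6a* at 1872 CPM. It held 75.8% of the *Pi16* UMIs. In these cells *Tnn* was at 36.0 CPM and *Tnc* at 246 CPM, the lowest of the 6 large subgroups, while *Cthrc1* was at 1361 CPM and *Postn* at 5147 CPM. Subgroup 2 was therefore a part of the rule that met it mainly by *Cthrc1*.

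Subgroup 3 (384 cells) was led by *Dmkn* (204 CPM) and *Wnt2* (165 against 28.4 CPM), followed by *Sbsn*, *Slc16a3* and the glycolysis gene *Pgk1* (635 against 188 CPM). It held 63.0% of the *Wnt2* UMIs and the highest *Id1* of the 6 large subgroups, at 88.4 CPM. Subgroup 4 (288 cells) was led by *Penk*, which encodes an opioid precursor (329 CPM), *Matn4*, *Ptn* (pleiotrophin, 3345 against 831 CPM), *Mdk* (951 CPM) and *Rspo3*. *Ptch1* at 155 CPM, *Gli1* at 40.3 CPM and *Cxcl12* at 467 CPM were highest here among the 6. Hedgehog targets thus varied among the cells, from a *Ptch1* of 11.6 CPM in subgroup 3 to that of subgroup 4.

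Subgroup 5 (278 cells, median 2717 UMIs) was led by histone and cell division genes, *Hist1h1b* at 173 against 5.72 CPM, *Pclaf* and *Cdca8*, with *Mki67* at 70.9 CPM under the limit of the rule. Subgroup 6 (184 cells, median 9410 UMIs) was led by *Spp1* (999 against 53.7 CPM), *Actg2*, *Cnn1*, *Inhba* (389 CPM) and *Acta2* (3008 against 550 CPM), and held 42.8% of the *Acta2* UMIs and 71.8% of the *Spp1* UMIs. *Tnc* at 1276 CPM, *Lrrc15* at 274 CPM and *Scx* at 130 CPM were highest here among the 6, and *Ly6a* at 178 CPM and *Pi16* at 10.2 CPM lowest. *Acta2* and *Pi16* were thus highest in different cells, of subgroups 6 and 2.

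Subgroups 7 to 11, with 414 cells (17.6%), were led by genes of other cell types. *Rgs5* and *Myh11* of mural cells led subgroup 7 (178 cells), *Cd74* and *Lyz2* of myeloid cells subgroup 8 (166 cells), and *Mcpt4* and *Cma1* of mast cells subgroup 9 (39 cells). Haemoglobin genes led subgroup 10 (20 cells), and immunoglobulin genes subgroup 11 (11 cells). *Postn* was at 3027 CPM in subgroup 7 and 3841 CPM in subgroup 8, beside those genes in the same droplets.

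**Figure D5:**
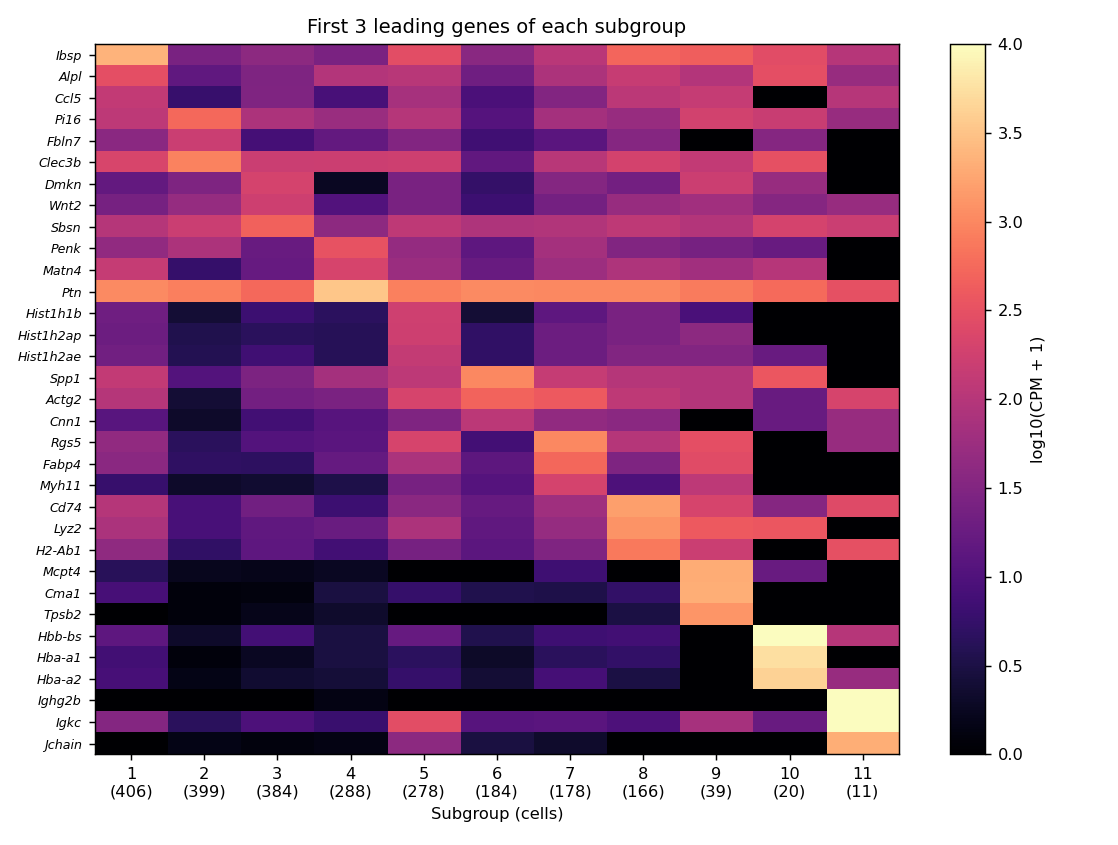
CPM on a log10 scale with 1 CPM added (colour) of the first 3 leading genes of each of the 11 subgroups (rows) in every subgroup (columns, with cell numbers). *Ibsp* peaks in subgroup 1, *Pi16* in subgroup 2 and *Spp1* in subgroup 6, and subgroups 7 to 11 show genes of other cell types.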

How the data were processed

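The deposited files held whole-number UMI counts per gene and cell barcode, which the authors made with Cell Ranger 5.0.0 and did not scale. The submitters' processing notes name mm10 and Seurat 3.1.1. Reads were down-sampled by the authors at some step, which may or may not lie before the deposited counts. Of 32285 gene identifiers, 32158 (99.6%) matched GENCODE M21. The members, gene lists and comparisons were chosen with earlier results of these data known.

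Cells were gated on raw counts with an mt share of at most 10% and without doublet removal, although the study removed doublets. CPM came from summed UMIs. Each time point was 1 library, so no test was run and no p-value computed. The genes named are those of the gene lists and, per comparison and direction, the 10 genes of largest ratio with a mean of at least 10 CPM and at least 20 UMIs in the higher and 5 in the lower group. Genes of the gates, ribosomal, mitochondrial, haemoglobin and predicted genes were left out of that ranking. Subgroups were named by their 10 genes of largest fold with a UMI in 20% of cells.

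Subgroups came from Leiden clustering (2000 variable genes, 20 components, 15 neighbours, resolution 0.5) with scanpy 1.11.5 and igraph 0.11.9. Other tools were Python 3.11.15, NumPy 2.4.6, pandas 2.3.3, SciPy 1.17.1 and matplotlib 3.10.9. The counting of ratios was tested on simulated data. Alternatives were doublet and 2 SD limits, a mean over cells, thinning, CPM minima and other gate values, and depth classes, gates after thinning, and removal of cells with other-cell UMIs were added after seeing the data.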

Additional observations from a re-analysis of the deposited data

How the results depend on the processing

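The cells came from 1 library per time point, depth differed between libraries, and the counting intervals leave out variation between mice. The rule was set on raw counts, so its minimum of 4 UMIs takes a deeper cell more easily than a shallow one. Its upper limits act the other way and take a shallow cell more easily. Cells kept out by the cartilage term alone had a median of 5259 UMIs and those by the cycling term 6070. The *Tnn*/*Lrrc15*/*Cthrc1* cells had a median of 4090 UMIs. Free RNA, mixed droplets and the down-sampling named in the methods were not modelled. The cause was not tested for any change below.

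The number of *Tnn*/*Lrrc15*/*Cthrc1* cells (2353) was 3898 with a minimum of 2 UMIs of the 3 genes, 1037 with 8, and 1456 with a cartilage sum of 0. The 696 genes apart from the cells with cartilage transcripts became 1609 with a minimum of 1 CPM, 5695 with none, and 282 in cells with over 1000 and up to 8000 UMIs. The 145 apart from *Tnmd* cells became 977 and 5361 with these minima, 270 in cells thinned to 1500 UMIs and 238 with the rule applied after thinning to 3000 UMIs. The 916 apart from other mesenchymal cells became 2602 and 7403 with these minima and 1497 after thinning to 1500. The 513 apart from 3 dpi became 1586 and 6055, 837 after thinning to 1500, 832 with the rule after thinning to 3000, and 1220 in cells with over 1000 and up to 8000 UMIs. Under every other alternative run, the counts stayed within 1.5 times.

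The share of genes apart that were higher was 62.4% against the cells with cartilage transcripts, but 50.1% as a mean over cells, 51.5% after thinning to 1500, 52.4% with the rule after thinning and 24.5% in cells with over 1000 and up to 8000 UMIs. Against *Tnmd* cells it was 29.7%, but 45.9% after thinning to 1500, 56.5% above 8000 UMIs and 61.6% without a minimum. Against other mesenchymal cells it was 35.7% but 65.6% without a minimum, and against 3 dpi 53.6% but 70.4% with a minimum of 1 CPM, 69.0% with none, 49.2% with the rule after thinning and 45.3% in cells with over 1000 and up to 8000 UMIs.

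Reversals were mostly of immunoglobulin genes. On the log2 scale against the cells with cartilage transcripts, *Ighg2c* (-6.34) became 1.54 with 2 SD limits, 0.68 at over 1000 and up to 8000 UMIs and 1.23 without cells holding other-cell UMIs, and *Igkc* (-2.35) became 2.0, 2.58 and 2.28, with 0.71 as a mean over cells and 0.42 after thinning to 1500. *Megf6* (-1.10) became 0.21 with the rule after thinning, as did *Igkc* against *Tnmd* cells, from 1.82 to -1.95. Against other mesenchymal cells above 8000 UMIs, *Chrd* (-1.39) became 0.83, *Wnt11* (-1.12) 0.40 and *Tpm2* (1.24) -0.18, and *Car3* (-4.92) became 2.52 in cells with over 1000 and up to 8000 UMIs. Against 3 dpi, *Igkc* (-2.87) became 1.35 with 2 SD limits, 0.82 with the rule after thinning, 1.91 in cells with over 1000 and up to 8000 UMIs and 1.58 without other-cell UMIs, and *Jchain* (-3.59) 2.17, 0.70, 2.64 and 2.26. *Loxl4* (-1.87), *Saa3* (-1.27) and *Igha* (-4.94) became 1.08, 1.23 and 0.08 at over 1000 and up to 8000 UMIs. No paired analysis was possible because each time point was 1 library.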

Other observations

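At 1 dpi a few of the 61 cells that passed the rule carried transcripts of bone-forming cells. *Bglap*, which encodes osteocalcin, had 10616 UMIs in 9 of the 61 cells, 6847 of them in 1 cell, and *Bglap2* had 5427 UMIs in 7 cells, 3500 of them in the highest. *Ibsp* had 174 UMIs in 6 cells and *Sp7* 17 UMIs in 6 cells. In the cells passing the rule in the other libraries, *Bglap* had 0 UMIs in Uninjured, 6 UMIs at 3 dpi, all in 1 cell, and 5 UMIs in 5 of the 2353 cells at 7 dpi. With 9 cells and 1 library, these values describe those droplets alone.

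Cells that passed every term but the cycling limit numbered 782 at 7 dpi, with a median of 6070 UMIs. *Tnn* had a UMI in 61.3% of them and *Lrrc15* in 45.9%, against 53.7% and 40.4% of the 2353 *Tnn*/*Lrrc15*/*Cthrc1* cells at a median of 4090 UMIs. The depths differ, so the shares are given side by side.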
